A study of Mus musculus with 20 samples.

Results

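Messenger RNA levels of hepcidin and of the genes that take up, carry, store, sense and export iron were measured in the livers of 20 mice. The set was chosen by gene symbol and holds 10 genes: Hamp, Hamp2, Tfrc, Tfr2, Trf, Fth1, Ftl1, Slc40a1, Hfe and Bmp6. Each of the 10 had its own row among the 25444 loci of the tables, and all 10 were among the 13704 loci with enough counts to be tested. The mice were C57BL/6N (B6) and C3H/HeN (C3) animals aged 20 weeks, with 5 females (B6_F, C3_F) and 5 males (B6_M, C3_M) of each strain. All came from Taconic, the labels give neither an engineered allele nor a treatment for any group, and all were fed the NIH-31 diet and then the NTP2000 diet. Each library was made from the left lateral lobe of 1 mouse, so the livers of a group are separate animals. Each sex had its own room, and an effect of the room cannot be told apart from one of sex. The libraries were sequenced in 3 pools, and every group had livers in every pool. Library totals ran from 27370921 to 46835745 counted read pairs. Values of the 5 livers of a group are given in the order of their replicate numbers. Levels of a gene between livers are given as CPM, the count scaled to the library total after TMM normalisation. Levels of different genes are compared as TPM, which divides by gene length. Sums over marker genes are the exception, as they add CPM and so also depend on transcript length. A gene was called different between groups where the adjusted p of edgeR's quasi-likelihood test with pool as a covariate was below 0.001 with a log2 difference of more than 0.5 up or down. The 8 hepatocyte marker genes summed to 99905 to 131696 CPM in B6_F, 80791 to 106094 CPM in B6_M, 139007 to 171230 CPM in C3_F and 112699 to 140289 CPM in C3_M, and none was at 0.

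Hepcidin, the product of Hamp, is a peptide hormone that hepatocytes release into the blood. It binds the iron exporter ferroportin, the product of Slc40a1, and causes its removal from the cell surface, so that less iron leaves macrophages, enterocytes and hepatocytes for the plasma. The liver sets hepcidin through BMP signals from sinusoidal endothelial cells, Bmp6 above all, and through the transferrin sensors Hfe and Tfr2, while Tfrc, transferrin (Trf) and ferritin (Fth1, Ftl1) take up, carry and store iron. Ferritin, ferroportin and transferrin receptor transcripts also carry stem loops to which iron regulatory proteins bind when cell iron is low.

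Mice have a pair of hepcidin genes side by side, and the results below differ between them. Hamp (gene ID 84506, chr7:31727388-31729036, minus strand) and Hamp2 (gene ID 66438, chr7:31707391-31709200, minus strand) lie on chromosome 7 of mm9 with 18.2 kb between them, and each has 3 exons in GENCODE M1. None of the 268 windows of 125 bases in the Hamp transcript, the length of a read, occurred in the Hamp2 transcript, and the longest shared run was 87 bases. Read pairs that mapped to several places were not counted. Reads shortened by trimming could still lie within a shared run, and their share was not tested. The transcripts are those of the reference, and the sequences of the B6 and C3 mice were not examined.

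The 250 bases upstream of each start site are shown because edgeR called Hamp2 between the sexes in both strains and Hamp in neither. DESeq2 also called Hamp in B6, and a part of these sequences in any sex difference was not tested. They come from RefSeq's GRCm38.p6 annotation, at chr7:30944030-30944279 for Hamp and chr7:30924182-30924431 for Hamp2, both on the minus strand. Capitals mark 3 motifs known from the hepcidin promoter that were searched on both strands, GGCGCC (the core of the BMP-responsive element, which reads the same on both strands), TTCTTGGAA (a STAT3 site) and TGAGTCA (a bZIP site), and in Hamp2 also the bases aligned with GGCGCC.
Hamp: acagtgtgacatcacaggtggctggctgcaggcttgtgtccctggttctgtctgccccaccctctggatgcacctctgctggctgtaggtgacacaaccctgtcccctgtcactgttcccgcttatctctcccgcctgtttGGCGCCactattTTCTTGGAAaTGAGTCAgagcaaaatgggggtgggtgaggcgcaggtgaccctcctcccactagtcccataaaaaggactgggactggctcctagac
Hamp2: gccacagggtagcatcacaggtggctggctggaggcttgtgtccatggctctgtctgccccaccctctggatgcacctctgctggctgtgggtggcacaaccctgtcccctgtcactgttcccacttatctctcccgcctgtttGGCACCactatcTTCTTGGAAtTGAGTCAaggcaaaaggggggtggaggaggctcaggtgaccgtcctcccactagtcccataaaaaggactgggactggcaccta
The windows were 89.7% identical, with 20 mismatches and 6 gap positions. Both held 1 TTCTTGGAA and 1 TGAGTCA, which do not overlap. Hamp held 1 GGCGCC, starting 109 bases before the start site, and the aligned bases in Hamp2 were GGCACC (G4A, counted from 1 at the 5′ end of the motif), so these letters did not occur in the Hamp2 window. Among all 32851 promoter windows of this length, 9.59% held GGCGCC, 0.365% held TTCTTGGAA and 4.46% held TGAGTCA. A match is a description of the sequence and not a measurement of binding. These are reference sequences, and those of the B6 and C3 mice were not examined.

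Stem loops of the iron-responsive type were looked for in the untranslated regions (UTRs) of GENCODE M1 transcripts on mm9, as C, 5 bases, CAGTGN, and 5 bases that pair with the first 5. They are shown because such elements are where the iron regulatory proteins bind. Fth1, Ftl1 and Slc40a1 each held 1 in the 5′ UTR, and Tfrc held 4 in the 3′ UTR. Capitals mark the loop letters CAGTG.
Fth1: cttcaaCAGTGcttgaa
Ftl1: cttcaaCAGTGtttgaa
Slc40a1: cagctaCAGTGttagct
Tfrc: cggaagCAGTGccttcc
Tfrc: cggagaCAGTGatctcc
Tfrc: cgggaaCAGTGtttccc
Tfrc: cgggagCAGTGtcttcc
Such an element occurred in the 5′ UTR of 0.166% of the 19854 genes with one and in the 3′ UTR of 0.623% of 19915 genes. The elements of Fth1 and Ftl1 differ at 1 base, the N that follows CAGTG, and not in the paired bases. A 5′ element lets the proteins block translation and 3′ elements let them stabilise the transcript, so mRNA counts can show the second kind of control and not the first.

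Per length, Trf was the most abundant of the 10 transcripts, with a mean of 17263 TPM over 20 livers (9376 to 27863), the 4th highest of all loci. Hamp followed with 5603 TPM, then Ftl1 with 3713 TPM, Fth1 with 764 TPM and Hamp2 with 427 TPM. The sensors and the exporter were lower, with 204 TPM for Tfr2, 112 TPM for Slc40a1 and 56.1 TPM for Hfe. Tfrc (11.5 TPM) and Bmp6 (3.99 TPM) were the lowest. Neighbours in this order had ranges over the 20 livers that did not overlap only between Ftl1 and Fth1 and between Hfe and Tfrc. Hamp exceeded Ftl1 in 12 of 20 livers and Hamp2 exceeded Tfr2 in 9 of 20, so neither order held in all livers. Hamp exceeded Ftl1 in every liver of pool 1, and in pool 3 only in C3_F replicate 2. In males Hamp2 held at most 105 TPM and Tfr2 at least 158 TPM. In females Hamp2 exceeded Tfr2 in every liver but B6_F replicate 1 (230 against 258 TPM). The fold between the highest and the lowest of the 20 livers was 242 for Hamp2, 7.85 for Hamp and 6.17 for Tfrc, and 1.504 for Tfr2, the smallest.

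**Figure D1:**
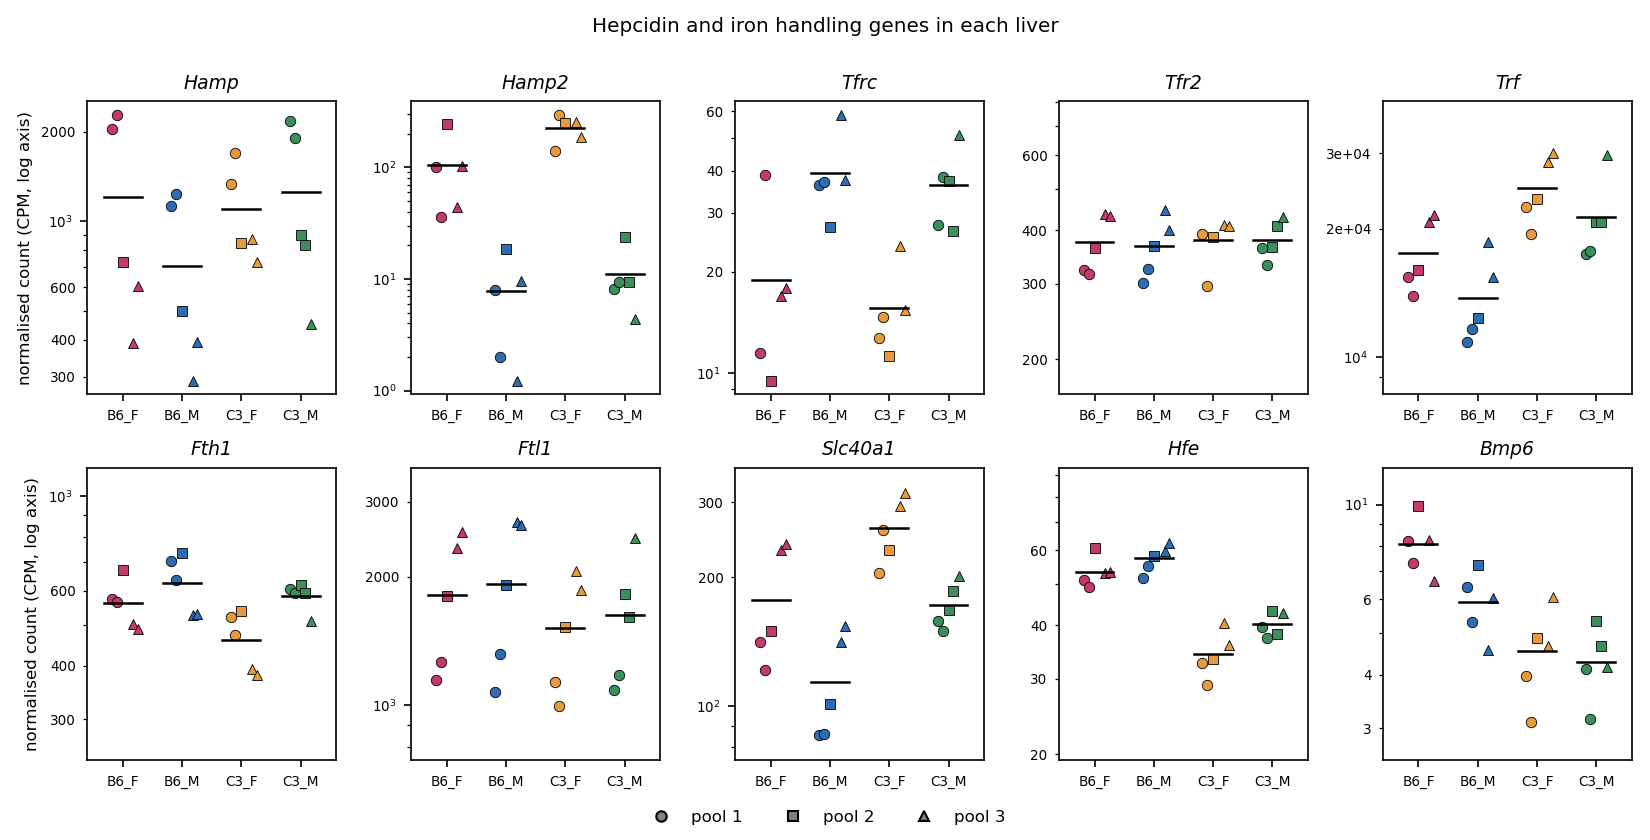
Level of each of the 10 genes in each of 20 livers (normalised counts, CPM, log axis) by group, with marker shape for the sequencing pool and a horizontal line at the group mean of 5 livers. Hamp2 is higher in every female than in any male, Hfe is lower in every C3 liver than in any B6 liver, and the circles of pool 1 lie at the top of each group for Hamp.

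In the comparison of sexes, Hamp2 and Slc40a1 were called higher in B6 females than in B6 males and no member was called lower, where 6.34% of all genes tested were called. Hamp2 was the 1 member called between C3 females and C3 males, where the share over all genes was 6.90%. In the comparison of strains, Trf and Slc40a1 were called higher and Hfe and Bmp6 lower in C3 females than in B6 females, with 9.40% of all genes called. Trf and Slc40a1 were also called higher and Hfe lower in C3 males than in B6 males, with 9.64% of all genes called. By direction, the shares of all genes called higher and lower were 3.23% and 3.12% between the B6 sexes, 4.11% and 2.79% between the C3 sexes, 4.63% and 4.77% between the females, and 4.09% and 5.55% between the males. An adjusted p under 0.05 was reached by 7, 5, 7 and 6 members in these comparisons, against 34.6%, 40.0%, 32.9% and 34.5% of all genes. The groups did not overlap for 1 member between the B6 sexes, 3 between the C3 sexes, 2 between the females and 1 between the males, where 10.9%, 13.1%, 12.8% and 15.1% of all genes did not overlap. These comparisons share livers pairwise, so their values for a gene are not independent of each other. The median log2 fold change of the 10 members was 0.19 between the B6 sexes, 0.03 between the C3 sexes, -0.11 between the females and 0.06 between the males, and over all genes tested it lay between 0.00 and 0.02.

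**Figure D2:**
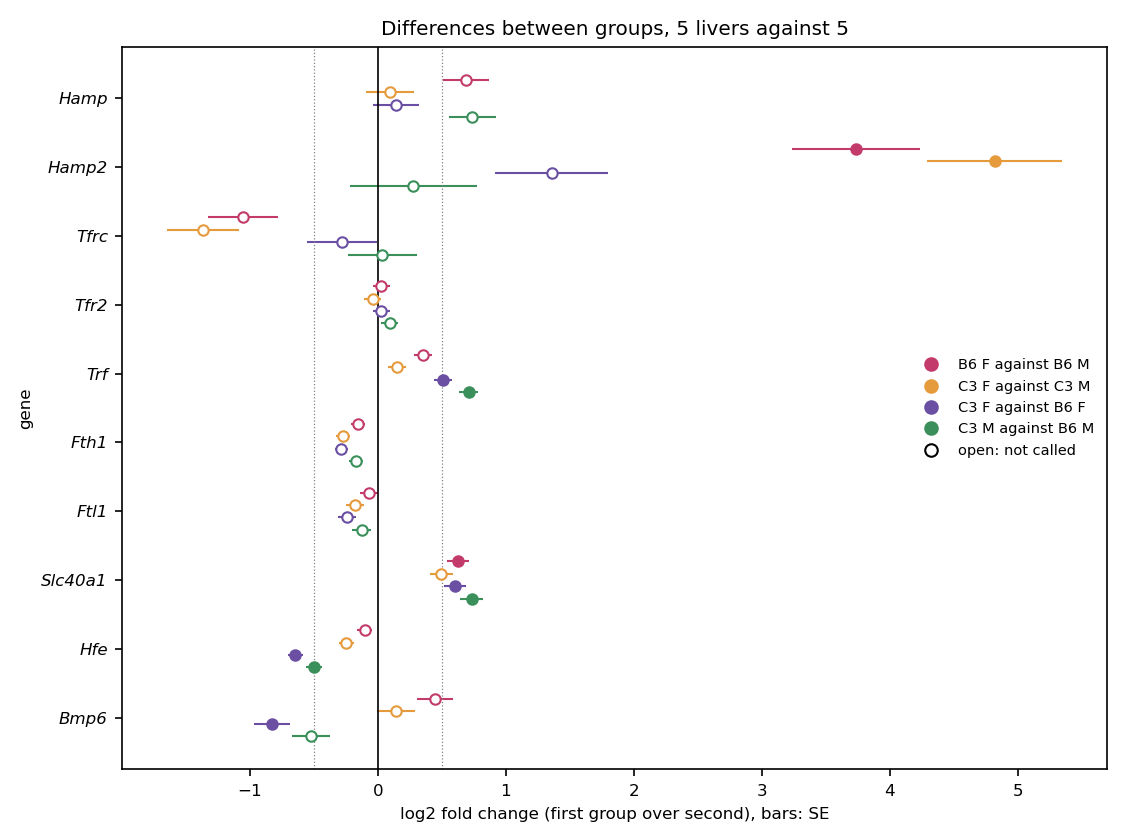
Log2 fold change of the 10 genes in the 4 comparisons of 5 livers against 5, from the edgeR fit with pool as a covariate. Bars are standard errors, filled points are called and dotted lines stand at 0.5 in either direction. Hamp2 lies at 3.74 and 4.82 in the comparisons of sexes, Hfe lies below 0 in all 4 comparisons and Slc40a1 above 0 in all 4.

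Hamp2 transcripts were present in both sexes and far more abundant in females. In B6, the females held 44.3, 102, 242, 101 and 36.1 CPM and the males 18.4, 7.99, 1.22, 9.53 and 1.99 CPM. In C3, the females held 251, 256, 187, 139 and 296 CPM and the males 23.6, 8.09, 9.44, 4.35 and 9.39 CPM. Every female exceeded every male of either strain, while the strains overlapped within each sex. The log2 fold change of females over males was 3.74 ± 0.50 (SE) in B6, a 13.4-fold difference (edgeR adjusted p = 1.69e-05), and 4.82 ± 0.53 in C3, a 28.3-fold difference (edgeR adjusted p = 1.72e-06). Within the pools, the difference of mean log2 CPM, which is not a fitted value and rests on 1 or 2 livers a group in each pool, was 3.71 to 4.26 for B6 and 4.07 to 5.63 for C3. It was above 0 in 3 of 3 pools in both strains, and values within pools are given in this way throughout. Without the livers of pool 1, the B6 difference was 3.74 with an edgeR adjusted p of 0.00268 and was no longer called. C3 females held 226 ± 62.5 CPM (SD, n = 5) and B6 females 105 ± 82.3 CPM, a log2 difference of 1.36 ± 0.44 that did not pass (edgeR adjusted p = 0.0239). The males differed by 0.28 ± 0.50 (edgeR adjusted p = 0.699). The lowest B6 male still had 50 counted read pairs for Hamp2, so these low levels rest on counts.

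Hamp itself did not separate the sexes in this way. B6 females held 389.7, 606, 727, 2043 and 2283 CPM, and B6 males 498, 1123, 291, 393 and 1237 CPM. C3 females held 846, 872, 732, 1331 and 1697 CPM, and C3 males 899, 2166, 1899, 453 and 832 CPM. All groups overlapped each other, and the spread within a group was wide, with 1209.6 ± 883 CPM in B6_F and 1249.7 ± 741 CPM in C3_M (SD, n = 5). The log2 fold change of females over males was 0.69 ± 0.18 in B6 (edgeR adjusted p = 0.00683), not called, and 0.09 ± 0.19 in C3 (edgeR adjusted p = 0.717). DESeq2 called the B6 difference (0.68, adjusted p = 0.000852). Within the pools it ran from 0.52 to 0.87 in B6, above 0 in 3 of 3 pools, and from -0.43 to 0.82 in C3, above 0 in 1 of 3. C3 males exceeded B6 males by 0.74 ± 0.18 (edgeR adjusted p = 0.0044), also not called, with 0.42 to 0.80 within the pools. DESeq2 called this difference as well (0.74, adjusted p = 0.000308). C3 and B6 females differed by 0.14 ± 0.18 (edgeR adjusted p = 0.592). The sex difference of C3 minus that of B6 was -0.60 ± 0.26 (edgeR adjusted p = 0.258), so a difference between strains in the sex effect was not shown.

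The level of Hamp differed more between sequencing pools than between groups. The 8 livers of pool 1 held 1123 to 2283 CPM, the 5 of pool 2 498 to 899 CPM and the 7 of pool 3 291 to 872 CPM, and no liver of pool 1 overlapped those of the other pools. Set against pool 1, Hamp fell by 1.22 ± 0.17 on the log2 scale in pool 2 (edgeR adjusted p = 7.7e-05) and by 1.70 ± 0.16 in pool 3 (edgeR adjusted p = 2.17e-08), where 1.16% and 20.0% of all genes were called. Hamp2 differed from pool 1 by 1.25 ± 0.41 in pool 2 (edgeR adjusted p = 0.0339) and by -0.10 ± 0.38 in pool 3 (edgeR adjusted p = 0.847), neither of which was called. The labels give the pool as a sequencing pool, and the methods state that libraries were distributed to the pools at random. Library totals did not overlap between pools, with 33107889 to 36673533 counted read pairs in pool 1, 27370921 to 31280663 in pool 2 and 38928480 to 46835745 in pool 3. For every gene, a difference between pools therefore cannot be told apart from one of depth. What else the livers of a pool share was not tested.

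The share of Hamp2 in the summed TPM of both copies is given as a description, with no test. It was 10.2% ± 8.48 (SD, n = 5) in B6 females and 16.6% ± 5.41 in C3 females, against 1.30% ± 1.32 in B6 males and 0.992% ± 0.789 in C3 males. The C3 female livers lay between 8.58% and 21.1%, above all males of either strain, whose highest share was 3.22%. The B6 females ranged from 1.41% to 23.1% and overlapped the males. Hamp was the more abundant hepcidin transcript in every liver.

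**Figure D3:**
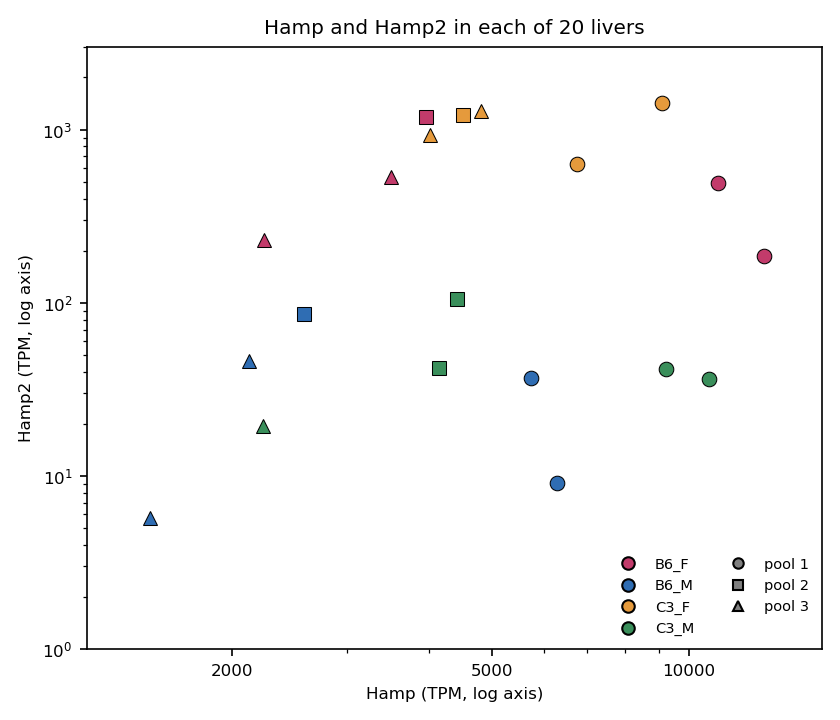
Hamp against Hamp2 in each of 20 livers (TPM, both axes logarithmic), with colour for the group and marker shape for the sequencing pool. Females lie above males along the Hamp2 axis in every pool, and the circles of pool 1 lie to the right along the Hamp axis in all 4 groups.

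Likeness of pattern was measured over the 20 livers as the mean absolute difference of log2 CPM after each gene was centred, with no test. The 3 genes most like Hamp were Tnfsf12 (0.32), Snord111 (0.38) and Ccdc59 (0.38), where the median gene differed from Hamp by 0.79. The 3 most like Hamp2 were Abcd2 (0.60), Sytl5 (0.67) and Rad51b (0.73), where the median gene differed from Hamp2 by 2.14. The values share pool, sex and strain across livers, and Snord111 averaged only 0.36 CPM.

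Among the members that control hepcidin, Bmp6, Hfe and Tfr2 were measured. Bmp6 (gene ID 12161, chr13:38437585-38592183, plus strand) encodes the BMP ligand that signals liver iron to hepatocytes and was low in these libraries. The 5 livers of B6_F had 8.24, 6.61, 9.95, 8.21 and 7.30 CPM and those of B6_M 7.21, 6.43, 4.56, 6.05 and 5.31 CPM. The 5 livers of C3_F had 4.86, 4.65, 6.09, 3.96 and 3.09 CPM and those of C3_M 5.34, 4.12, 3.15, 4.16 and 4.68 CPM. Every C3 female lay below every B6 female, and the groups overlapped in the other 3 comparisons. Bmp6 fell by 0.82 ± 0.14 on the log2 scale in C3 females against B6 females (edgeR adjusted p = 0.000164), with -1.13 to -0.47 within the pools. The same comparison in males gave -0.52 ± 0.15 (edgeR adjusted p = 0.00972) and was not called. Females over males gave 0.45 ± 0.14 in B6 (edgeR adjusted p = 0.0186) and 0.14 ± 0.15 in C3 (edgeR adjusted p = 0.458). The call in females was lost without pool in the model (edgeR adjusted p = 0.00177), when only the groups compared were fitted (edgeR adjusted p = 0.00232), and without the livers of pool 1 (edgeR adjusted p = 0.0183) or pool 2 (edgeR adjusted p = 0.00413). The summed level of 8 sinusoidal endothelial markers, from cells that make Bmp6, was 434 to 554 CPM in B6_F, 357 to 431 CPM in B6_M, 410.3 to 509.8 CPM in C3_F and 363 to 439.8 CPM in C3_M, none of the 8 was at 0, and 1 of the 8, Lyve1, was called lower in C3 females. The median log2 difference of the 8 for C3 over B6 was -0.22 in females and -0.13 in males. In females all but Stab2 (0.02) lay below 0, the direction of Bmp6. For females over males the median was 0.32 in B6 and 0.24 in C3. The part of endothelial cells in the Bmp6 result was not tested. In whole liver, fewer cells of a type and less RNA per cell cannot be told apart.

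Hfe (gene ID 15216, chr13:23795710-23802680, minus strand), the MHC class I-like protein altered in hereditary haemochromatosis, was lower in C3 in both sexes. Levels in B6_F were 53.2, 53.3, 60.6, 51.1 and 49.2 CPM, and in B6_M 58.1, 51.6, 59.9, 62.5 and 55.0 CPM. Levels in C3_F were 33.4, 40.5, 35.9, 32.6 and 29.0 CPM, and in C3_M 43.3, 39.7, 37.4, 42.7 and 38.3 CPM. All 10 C3 livers lay below all 10 B6 livers. Hfe fell by 0.64 ± 0.06 on the log2 scale in C3 females (edgeR adjusted p = 1.19e-07) and by 0.50 ± 0.06 in C3 males (edgeR adjusted p = 3.63e-06), with -0.86 to -0.48 and -0.52 to -0.47 within the pools. The value in males lay at the fold threshold and fell short of it, at -0.47 to -0.50, without B6_F replicate 1, 2 or 3, B6_M replicate 4 or 5, C3_F replicate 3, or C3_M replicate 4 or 5. It was also not called with no filter on low counts (-0.489) or without the livers of pool 1 (edgeR adjusted p = 0.00156), pool 2 (-0.477) or pool 3 (-0.475). Females over males gave -0.10 ± 0.06 in B6 (edgeR adjusted p = 0.2) and -0.25 ± 0.06 in C3 (edgeR adjusted p = 0.00478), neither of which was called.

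Tfr2 (gene ID 50765, chr5:138011068-138029309, plus strand), the hepatocyte sensor of iron-loaded transferrin, had the narrowest range of the 10. In B6, the females held 437, 433, 364, 324 and 316 CPM and the males 367, 301, 447, 401 and 324 CPM. In C3, the females held 386, 412, 409, 392 and 297 CPM and the males 366, 363, 333, 430.1 and 409.9 CPM. All groups overlapped, and the group means lay between 368 and 380.4 CPM. The log2 fold changes were 0.03 ± 0.07 and -0.04 ± 0.07 for females over males in B6 and C3, and 0.03 ± 0.07 and 0.09 ± 0.07 for C3 over B6 in females and males, and none passed (edgeR adjusted p = 0.308 to 0.809). Between pools 3 and 1 Tfr2 differed by 0.36 ± 0.05 without overlap (edgeR adjusted p = 1.19e-05), below the fold threshold.

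Trf (gene ID 22041, chr9:103111206-103132616, minus strand) encodes transferrin, the plasma protein that carries iron and is made mainly by hepatocytes, and its transcript was more abundant in C3. B6 females held 20770.4, 21537, 16012, 15392 and 13885 CPM, and B6 males 12353, 10847, 18589, 15421 and 11628 CPM. C3 females held 23504, 28687, 30017, 22448 and 19449.7 CPM, and C3 males 20734, 17479, 17728, 29737 and 20669 CPM. The strains overlapped in both sexes when pools were read together. The hepatocyte marker sums given above were higher in C3 without overlap within each sex, and most of each sum was Alb, which encodes albumin. Alb averaged 88003 CPM in B6_F, 66015 CPM in B6_M, 122610 CPM in C3_F and 93641 CPM in C3_M. It gave 0.49 ± 0.09 in females and 0.45 ± 0.09 in males for C3 over B6, under the fold threshold. The median of the 8 markers was 0.07 in females and 0.21 in males. In females Alb, Apoa1, Fgb and Ttr were above 0, and Tat, Ass1, Cps1 and Hnf4a below 0. The part of hepatocyte markers in the Trf result was not tested. With pool in the model, C3 exceeded B6 by 0.51 ± 0.07 on the log2 scale in females, a 1.42-fold difference (edgeR adjusted p = 1.95e-05), and by 0.71 ± 0.07 in males, a 1.64-fold difference (edgeR adjusted p = 3.49e-07). Within the pools the difference ran from 0.47 to 0.55 in females and from 0.65 to 0.81 in males. The value in females fell under the fold threshold without B6_F replicate 1 or 5, or C3_F replicate 1 or 4 (0.47 to 0.50), and with RLE (0.499) or upper-quartile scaling (0.473) or limma on TPM (0.437). It was also not called with only the groups compared (edgeR adjusted p = 0.00216) or without the livers of pool 1 (edgeR adjusted p = 0.00514), pool 2 (0.497) or pool 3 (edgeR adjusted p = 0.0021). Neither call held without pool in the model (edgeR adjusted p = 0.0623 and 0.0175). Females exceeded males by 0.35 ± 0.07 in B6 (edgeR adjusted p = 0.000916), under the fold threshold, and by 0.15 ± 0.07 in C3 (edgeR adjusted p = 0.102).

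Tfrc (gene ID 22042, chr16:32608982-32632880, plus strand), transferrin receptor 1, brings iron-loaded transferrin into the cell and is abundant in red cell precursors. The 5 livers of B6_F had 16.9, 17.9, 9.51, 11.5 and 38.8 CPM and those of B6_M 27.1, 36.3, 58.6, 37.5 and 37.1 CPM. The 5 livers of C3_F had 11.3, 23.9, 15.5, 12.8 and 14.7 CPM and those of C3_M 37.3, 27.6, 38.4, 51.0 and 26.4 CPM. All C3 females lay below all C3 males, and 4 of 5 B6 females lay below all B6 males. The log2 fold change of females over males was -1.05 ± 0.27 in B6 (edgeR adjusted p = 0.00618) and -1.37 ± 0.28 in C3 (edgeR adjusted p = 0.00112), 0.482 and 0.388 times the male level, and neither met the threshold of 0.001. B6_F replicate 5 stood apart at 38.8 CPM, and without this liver the B6 value was -1.55 (edgeR adjusted p = 7.36e-07) and that in C3 -1.37 (edgeR adjusted p = 1.36e-06), both called. The C3 value was also called without B6_F replicate 4, C3_F replicate 2 or C3_M replicate 2 (-1.36 to -1.49), and with DESeq2 (-1.39, adjusted p = 5.75e-05). RLE scaling (-1.38), no filter on low counts (-1.37) and only the groups compared (-1.36) gave the C3 call as well. Without pool 1 livers both the B6 (-1.47) and the C3 value (-1.46) were called. Within the pools, the difference was -1.51 to -0.79 for B6, where -1.51 was 1 liver against 1 in pool 2, and -1.47 to -1.24 for C3. Between strains Tfrc differed by -0.28 ± 0.27 in females (edgeR adjusted p = 0.478), with 0.22 without B6_F replicate 5, and by 0.04 ± 0.27 in males (edgeR adjusted p = 0.933).

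The summed level of 14 erythroid markers, held as 16 loci, was also lower in females, through the 1 gene Alas2. The sum was 23.7 to 38.4 CPM in B6_F and 148 to 189.6 CPM in B6_M, and 19.3 to 33.1 CPM in C3_F and 201 to 228 CPM in C3_M. Most of it was Alas2, the erythroid enzyme of haem synthesis, at 24.6 ± 4.91 and 165 ± 18.0 CPM in B6 females and males and 21.8 ± 5.85 and 214 ± 12.04 CPM in C3 (SD, n = 5). The other 13 markers summed to 3.95 to 5.90 CPM in B6_F, 2.77 to 5.11 CPM in B6_M, 3.38 to 6.45 CPM in C3_F and 2.11 to 5.00 CPM in C3_M, with higher medians in females (4.19 against 3.59 CPM in B6 and 4.72 against 3.66 CPM in C3) and overlapping ranges. Only 4 of the 14 markers had enough counts to be tested. Of these Alas2 was called lower in females of both strains (-2.76 ± 0.14 and -3.28 ± 0.14) and Klf1 was called higher in B6 females (0.66 ± 0.12), with 0.63 ± 0.13 in C3 (edgeR adjusted p = 0.00108). The 8 haemoglobin loci are listed at 0 in all libraries, but each overlaps another annotated haemoglobin locus, and read pairs that overlap several genes were not counted, so these zeros say nothing of haemoglobin RNA. The part of erythroid cells in the Tfrc values was not tested.

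Slc40a1 (gene ID 53945, chr1:45964915-45982439, minus strand) encodes ferroportin, the iron exporter on which hepcidin acts, and was higher in females than in males and higher in C3 than in B6. Levels in B6_F were 232, 239, 149.9, 141 and 121 CPM, and in B6_M 101, 85.6, 141, 154 and 86.2 CPM. Levels in C3_F were 231, 294, 315, 205 and 258 CPM, and in C3_M 167, 158, 150.2, 201 and 186 CPM. The C3 sexes did not overlap, and the B6 sexes overlapped across pools. Females exceeded males by 0.63 ± 0.09 on the log2 scale in B6 (edgeR adjusted p = 2.33e-05), called, and by 0.497 ± 0.09 in C3 (edgeR adjusted p = 0.000318), just under the fold threshold. The C3 value met that threshold, at 0.50 to 0.53, without B6_F replicate 1, 2 or 3, B6_M replicate 4, C3_F replicate 2, 3 or 4, or C3_M replicate 2 or 5. It was also called with upper-quartile scaling (0.56), limma on TPM (0.60) and only the groups compared (0.53). Upper-quartile scaling and limma moved the median gene as well, to 0.08 to 0.12. C3 exceeded B6 by 0.60 ± 0.09 in females (edgeR adjusted p = 2.57e-05) and by 0.73 ± 0.09 in males (edgeR adjusted p = 3.09e-06). All 4 differences kept their direction in 3 of 3 pools, with 0.57 to 0.67, 0.39 to 0.60, 0.37 to 0.81 and 0.45 to 0.84 in the order given. Without pool in the model the 3 calls were lost (edgeR adjusted p = 0.0367, 0.0574 and 0.0381). The call in B6 was also lost without pool 1 livers (edgeR adjusted p = 0.00123) or pool 3 livers (edgeR adjusted p = 0.00102), and that between the females without pool 1 livers (edgeR adjusted p = 0.00718) or with only the groups compared (edgeR adjusted p = 0.00158). Livers of pool 3 exceeded pool 1 by 0.63 ± 0.07 (edgeR adjusted p = 3.71e-07).

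Kupffer cells, the macrophages of the liver, recycle iron from red cells and express ferroportin. The summed level of 8 Kupffer cell markers was 485 to 610.2 CPM in B6_F, 304 to 461 CPM in B6_M, 322 to 474 CPM in C3_F and 224 to 331 CPM in C3_M, and none of the 8 was at 0. In C3 against B6, 5 of 8 were called lower in females (Adgre1, C1qa, Clec4f, Csf1r and Vsig4) and 3 of 8 in males (Adgre1, Csf1r and Vsig4), opposite to Slc40a1. Between the sexes Vsig4 was the 1 marker of 8 called, higher in females of B6 (0.75 ± 0.09) and of C3 (0.51 ± 0.10), the direction of the Slc40a1 values. Each of the 8 was above 0 for females over males in both strains, with a median of 0.51 in B6 and 0.38 in C3. The part of Kupffer cells in the Slc40a1 result was not tested.

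Ferritin stores iron in a shell of heavy (Fth1) and light (Ftl1) subunits. Fth1 (gene ID 14319, chr19:10055090-10059601, plus strand) held 381 to 736 CPM over the 20 livers. In B6, the females held 502, 489, 671, 575 and 563 CPM and the males 736, 702, 525, 529.9 and 635 CPM. In C3, the females held 538, 393, 381, 519.9 and 473 CPM and the males 618, 605, 593, 510.0 and 594 CPM. The groups overlapped in every comparison, and no difference reached the fold threshold. The log2 fold changes were -0.16 ± 0.05 (edgeR adjusted p = 0.027) and -0.27 ± 0.05 (edgeR adjusted p = 0.000687) for females over males in B6 and C3, and -0.29 ± 0.05 (edgeR adjusted p = 0.000295) and -0.17 ± 0.05 (edgeR adjusted p = 0.0181) for C3 over B6 in females and males. The adjusted p was under 0.001 in C3 between the sexes and in females between the strains, where all 3 pools gave values below 0 (-0.40 to -0.17 and -0.36 to -0.20).

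Ftl1 (gene ID 14325, chr7:52713314-52715256, minus strand) differed more between sequencing pools than between groups. B6 females held 2338, 2542, 1799.9, 1149 and 1261 CPM, and B6 males 1912, 1078, 2684, 2647 and 1321 CPM. C3 females held 1528, 2069, 1863, 1137 and 999 CPM, and C3 males 1826, 1084, 1176, 2463 and 1608 CPM. Within each group the pool 3 livers were the highest and the pool 1 livers the lowest. Between groups the log2 fold changes lay between -0.24 (C3 over B6 females, edgeR adjusted p = 0.0128) and -0.07 (B6 females over males, edgeR adjusted p = 0.486), and none was called. Against pool 1, Ftl1 was higher by 0.59 ± 0.06 in pool 2 (edgeR adjusted p = 7.43e-06) and by 1.04 ± 0.06 in pool 3 (edgeR adjusted p = 2.58e-11). Fth1 went 0.11 ± 0.05 and -0.29 ± 0.04 in the same pools. The ratio of Ftl1 to Fth1 TPM therefore averaged 3.10 in pool 1 (2.39 to 3.49), 4.29 in pool 2 (4.05 to 4.60) and 7.78 in pool 3 (7.25 to 8.20), with no overlap between pools, while the ranges of the 4 groups overlapped. The Ftl1 transcript matched 4 other places of the mm9 genome at 97.4% to 99.6% identity over at least 90% of its length, so its count leaves out read pairs that mapped to several of them and is uncertain. The Fth1 transcript matched 3 other places at 80.9% to 88.1%. This uncertainty touches the ratio as well.

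**Figure D4:**
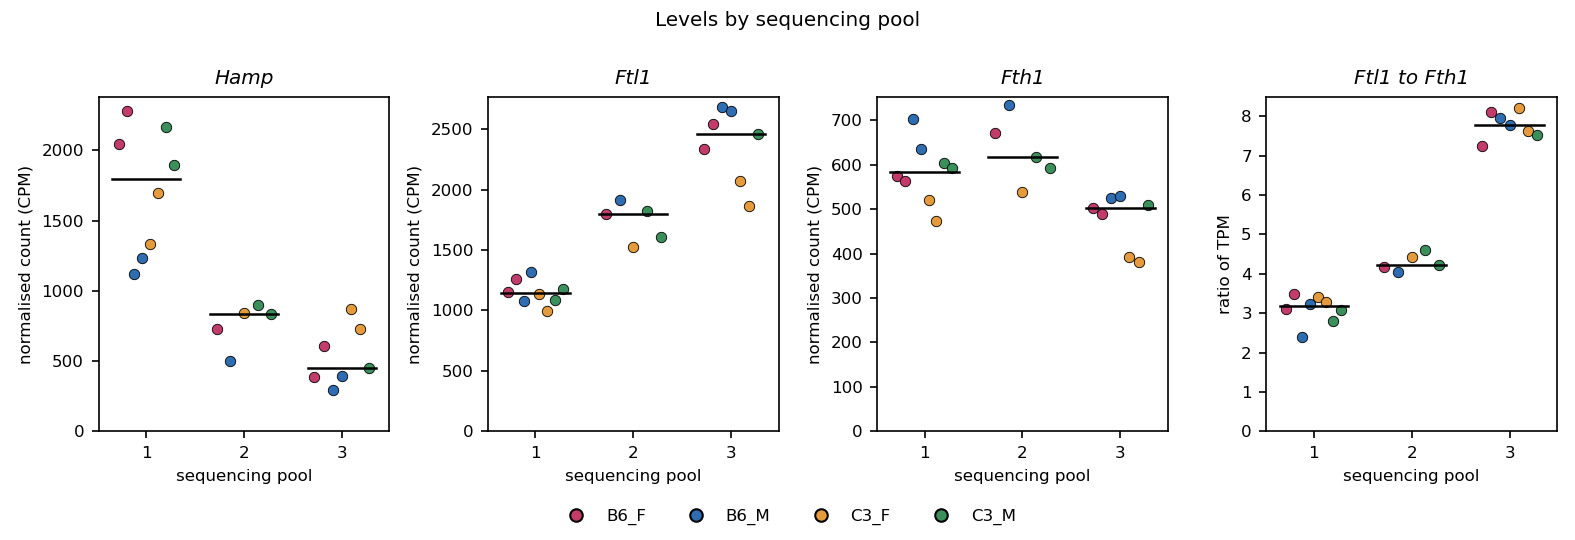
Hamp, Ftl1 and Fth1 (normalised counts, CPM) and the ratio of Ftl1 to Fth1 (TPM) in each liver by sequencing pool, with colour for the group and a line at the pool median (8, 5 and 7 livers). In all 4 groups Hamp is lower and Ftl1 higher in the pool 3 livers than in the pool 1 livers, and the ferritin ratio does not overlap between pools.

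The sex-by-strain interaction, the sex difference in C3 minus that in B6, was called for 0 of the 10 members by edgeR and by DESeq2, where edgeR called 0.401% of all genes tested. At an adjusted p under 0.05 there were 0 members, where 2.96% of all genes passed, and at an unadjusted p under 0.05 edgeR gave 1 member, Hamp, where 16.1% of all genes passed. For Hamp2 the interaction was 1.08 ± 0.66 on the log2 scale (edgeR adjusted p = 0.456) and for Slc40a1 it was -0.13 ± 0.12 (edgeR adjusted p = 0.66). A difference between strains in the sex effect was not shown for any member with 5 livers a group. In simulated counts, described below, the interaction test recovered 123 of 200 changed genes, against 176 of 200 in the comparison of C3 sexes.

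Other genes of iron handling were described as 5 lists with 50 genes, of which 49 had a row under their symbol and 46 were tested. Between females and males 3 rose and 2 fell in B6, and 2 rose in C3. Between C3 and B6, 1 rose and 2 fell in females, and 2 rose and 1 fell in males. Of the 46, the 5, 2, 3 and 3 genes called stand beside the 6.34%, 6.90%, 9.40% and 9.64% of all genes called in these comparisons. The median log2 fold change of the 46 was 0.06, 0.02, 0.11 and 0.11, against 0.00 to 0.02 over all genes tested.

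In the list of BMP and SMAD control, 18 of 19 genes were tested. Bmp2, a BMP ligand of liver endothelium that also drives hepcidin, held 9.77 to 14.1 CPM in B6_F and 6.11 to 8.70 CPM in B6_M, with no overlap, and rose by 0.63 ± 0.12 on the log2 scale in B6 females (edgeR adjusted p = 0.000385). In C3 it gave 0.35 ± 0.12 (edgeR adjusted p = 0.0225) and was not called. The endothelial marker sums given above were 434 to 554 CPM in B6_F and 357 to 431 CPM in B6_M. All 8 of these markers were above 0 for females over males in B6, with a median of 0.32, and 0 were called. Their part in the Bmp2 result was not tested. Fgl1, which encodes a hepatokine that opposes BMP ligands and was the most abundant gene of the list at 565 TPM, held 244 to 501 CPM in B6_F and 77.2 to 208 CPM in B6_M, and 357 to 1030.0 CPM in C3_F and 82.0 to 126 CPM in C3_M. Every female exceeded every male, with a log2 difference of 1.70 ± 0.29 in B6 (edgeR adjusted p = 0.000225) and 2.44 ± 0.30 in C3 (edgeR adjusted p = 7.32e-06). Bmp4 rose in C3 males against B6 males by 1.23 ± 0.25 (edgeR adjusted p = 0.00075), from 1.52 to 2.66 CPM to 3.25 to 7.17 CPM. Tmprss6, the protease that lowers hepcidin and the next most abundant of the list at 291 TPM, differed by 0.04 ± 0.05 and -0.01 ± 0.05 between the sexes and by 0.26 ± 0.05 and 0.31 ± 0.05 between the strains, all under the fold threshold.

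DESeq2 called 5, 2, 0 and 1 genes of this list in the 4 comparisons, where edgeR called 2, 1, 0 and 1. The transcripts that BMP signals are known to raise, Id1, Smad6, Smad7 and Atoh8, were not called in any comparison by edgeR. DESeq2 called Id1 (1.53, adjusted p = 0.000496), Smad6 (0.54, adjusted p = 9.36e-05) and Atoh8 (0.69, adjusted p = 7.82e-05) higher in B6 females, and Id1 (1.76, adjusted p = 7.02e-05) higher in C3 females. These 4 are named here although the rule did not select them, and were chosen after their values were seen. For females over males in B6, Id1 gave 1.54 ± 0.35 (edgeR adjusted p = 0.00253), Smad6 0.55 ± 0.12 (edgeR adjusted p = 0.00197), Smad7 0.91 ± 0.26 (edgeR adjusted p = 0.0113) and Atoh8 0.70 ± 0.15 (edgeR adjusted p = 0.00184). In C3 the values were 1.73 ± 0.37 for Id1 (edgeR adjusted p = 0.00143), 0.51 ± 0.13 for Smad6 (edgeR adjusted p = 0.00423), 0.20 ± 0.27 for Smad7 (edgeR adjusted p = 0.587) and 0.02 ± 0.16 for Atoh8 (edgeR adjusted p = 0.939). Id1 ranged over 3.90 to 12.5 CPM in B6_F and 1.65 to 5.11 CPM in B6_M, and over 8.92 to 16.8 CPM in C3_F and 1.53 to 10.1 CPM in C3_M, so its sexes overlapped in both strains. Smad6 held 7.97 to 9.23 CPM in B6_F and 4.28 to 7.65 CPM in B6_M, which did not overlap, and the sexes overlapped for Smad6 in C3 and for Smad7 and Atoh8 in both strains.

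In the list of IL6 and STAT3 control, which raises hepcidin in inflammation, 6 of 7 genes were tested and 0 were called in any of the 4 comparisons by edgeR. At an unadjusted p under 0.05 edgeR gave 1, 2, 1 and 3 genes in the 4 comparisons in the order above, against 44.4%, 49.0%, 41.9% and 44.3% of all genes, and DESeq2 called 0, 0, 0 and 0. The most abundant were Il6st (111 TPM) and Stat3 (54.9 TPM). Il6st gave 0.24 ± 0.07 and -0.08 ± 0.07 between the sexes and Stat3 gave 0.06 ± 0.13 and 0.12 ± 0.13. At an adjusted p under 0.05 there were 1, 0, 0 and 2 genes, against 34.6%, 40.0%, 32.9% and 34.5% of all genes. The list of iron regulatory proteins and ferritin handling had 6 of 6 genes tested and 0 called by edgeR, with 2, 5, 1 and 1 at an adjusted p under 0.05, to be read against the same shares of all genes. At an unadjusted p under 0.05 edgeR gave 2, 6, 1 and 3 genes of this list, again beside 44.4%, 49.0%, 41.9% and 44.3% of all genes, and DESeq2 called 0, 0, 0 and 0. Its most abundant members were Aco1, iron regulatory protein 1 (166 TPM), and Ncoa4, the receptor that takes ferritin to the lysosome (47.5 TPM). Aco1 held 287 to 361 CPM in B6_F and 363 to 409.9 CPM in B6_M, which did not overlap, at a difference of -0.22 ± 0.06 (edgeR adjusted p = 0.0131). Between the B6 and the C3 sexes, 1 and 2 of the 6 did not overlap, beside 10.9% and 13.1% of all genes. The 2 in C3 were Ncoa4 and Fbxl5, a gene the rule did not select. Ncoa4 held 89.7 to 94.7 CPM in C3_F and 95.3 to 108 CPM in C3_M. Fbxl5 held 48.4 to 59.7 CPM in C3_F and 39.0 to 44.9 CPM in C3_M. DESeq2 gave -0.16 for Ncoa4 and 0.30 for Fbxl5, under the fold threshold.

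In the list of iron transport and reduction, 10 of 11 genes were tested. Steap2, a metalloreductase, held 10.95 to 17.8 CPM in B6_F and 5.61 to 7.28 CPM in B6_M, and 13.6 to 24.9 CPM in C3_F and 4.05 to 6.68 CPM in C3_M. It rose in females by 1.13 ± 0.14 in B6 (edgeR adjusted p = 7.47e-06) and 1.86 ± 0.14 in C3 (edgeR adjusted p = 2.22e-08), without overlap in either strain. Slc11a2, the ferrous iron importer DMT1, fell by 0.53 ± 0.07 in B6 females (edgeR adjusted p = 3.03e-05), and gave -0.36 ± 0.08 in C3 (edgeR adjusted p = 0.00128). Slc25a37, mitoferrin 1, fell by 0.66 ± 0.09 in B6 females (edgeR adjusted p = 2.15e-05), and gave -0.34 ± 0.09 in C3 (edgeR adjusted p = 0.00775). Between strains, Steap3 rose by 0.79 ± 0.11 (edgeR adjusted p = 1.6e-05) and the copper ferroxidase Heph fell by 0.71 ± 0.14 (edgeR adjusted p = 0.000831) in C3 females. In males Heph gave -0.72 ± 0.15 without overlap (edgeR adjusted p = 0.0011), just missing the threshold, and DESeq2 called it (adjusted p = 0.00011), while Steap3 gave 0.28 ± 0.11 (edgeR adjusted p = 0.0574). Slc39a14, the importer of iron not bound to transferrin, rose by 0.62 ± 0.10 in C3 males (edgeR adjusted p = 9.94e-05). The most abundant of the list were Cp, the plasma ferroxidase ceruloplasmin (741 TPM), and Steap4 (99.3 TPM). Cp gave 0.40 ± 0.07 (edgeR adjusted p = 0.000443) and 0.42 ± 0.08 (edgeR adjusted p = 0.000282) for C3 over B6 in females and males, under the fold threshold.

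In the list of haem and haemoglobin clearance, 6 of 7 genes had a row and were tested. Cd163, the haptoglobin-haemoglobin receptor of macrophages, held 28.4 to 48.5 CPM in B6_F and 14.4 to 22.3 CPM in C3_F, and 26.5 to 31.1 CPM in B6_M and 15.8 to 22.5 CPM in C3_M. It fell by 1.11 ± 0.12 in C3 females (edgeR adjusted p = 4.46e-07) and by 0.67 ± 0.12 in C3 males (edgeR adjusted p = 0.000206), without overlap in either sex, beside the lower Kupffer cell markers given above. The most abundant were Hpx, haemopexin (3872 TPM), and Hp, haptoglobin (2411 TPM). Hpx gave 0.03 ± 0.13 and -0.14 ± 0.13 and Hp gave -0.54 ± 0.17 and -0.53 ± 0.17 for females over males in B6 and C3, and neither was called.

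**Figure D5:**
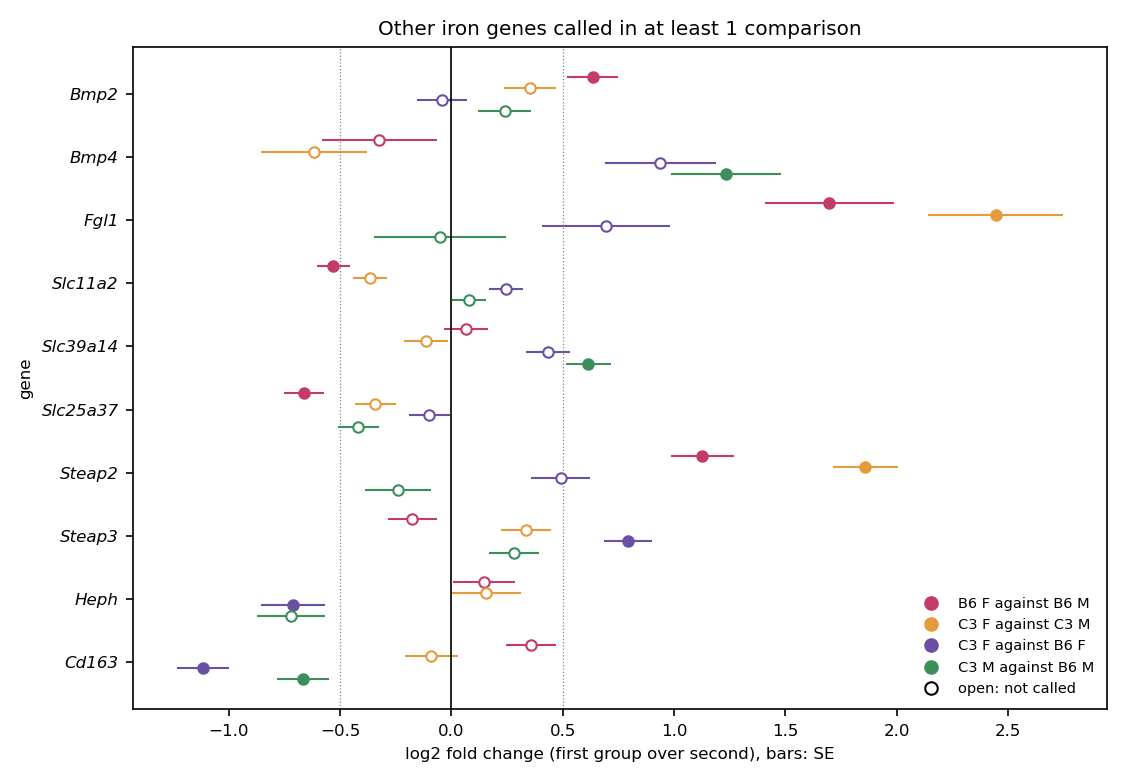
Log2 fold change of the 10 other iron genes that were called in at least 1 of 4 comparisons of 5 livers against 5, from the edgeR fit. Bars are standard errors and filled points are called. Fgl1 and Steap2 are called higher in females of both strains, and Cd163 is called lower in C3 in both sexes.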

How the data were processed

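Total RNA from 20 mouse livers was sequenced as ribosomal RNA-depleted, stranded libraries in 3 pools. The authors trimmed the reads with Cutadapt 1.9.1, aligned them to mm9 with STAR 2.5.1b and counted read pairs on RefSeq genes with featureCounts of Subread 1.5.0-p1, without pairs that were multimapping or fell on more than 1 gene. They deposited raw counts and TPM for each library, and the gene length behind the TPM is not given in the sources used here. The headers of the symbol and gene ID columns were exchanged in the deposited tables, and genes were matched on the column that holds symbols.

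Counts were filtered with filterByExpr and scaled by TMM in edgeR 4.0.16 (R 4.3.3), and the quasi-likelihood test was fitted to all 20 libraries with group and pool as terms. In all, 4 pairwise comparisons and the sex-by-strain interaction were tested, with Benjamini-Hochberg adjustment over 13704 genes, an adjusted p under 0.001 and a log2 fold change over 0.5. The SE was taken from the fold change and the F statistic. Alternatives used DESeq2 1.42.0, limma 3.58.1 on TPM after adding 1 or 0.1 and taking log2, other scalings, no filter and other models. Counts of 20 libraries were simulated from the mean of each gene over all livers, with the same spread for every gene and no pool effect. Changes were put into 200 genes in C3 females. The test of C3 F against C3 M recovered 176 of 200 (76 of 100 at a log2 change of 1 and 100 of 100 at 2). It made 0 false calls among 13576 genes. The interaction test recovered 123 of 200. The real data have pool effects and unequal spreads, so these numbers do not give the recovery for the members. Library totals of 27370921 to 46835745 pairs set the depth. Replicate libraries of a group had r of 0.972 to 0.993 across genes, and all 40 pairs differed by more than sampling noise.

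The members and lists were chosen with earlier results of these data known. The text names all 10 members, every gene of the 5 iron lists called in at least 1 comparison, the 2 most abundant genes of each list by TPM, and the 3 genes most like Hamp and Hamp2 in pattern. The coding sequences of the hepcidin genes are not reported here. Transcripts, untranslated regions and near copies came from GENCODE M1 and the mm9 genome, with Biopython 1.88 and minimap2 2.31. Promoters came from RefSeq on GRCm38.p6, in which 8 of 10 members matched. Positions given for genes are those of the mm9 annotation.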

Additional observations from a re-analysis of the deposited data

Results flagged for a closer look

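A liver far from the other 4 of its group was looked for in 40 groups of 5 values, 10 genes by 4 groups, by the gap to the nearest liver as a share of the group's range, with 0.71 as the limit. Chance alone puts about 1 in 20 groups past this limit, and 5 of 40 passed. For Hamp2, C3_M replicate 1 held 23.6 CPM and the next highest liver 9.44 CPM. For Tfrc, B6_F replicate 5 held 38.8 CPM and the next highest 17.9 CPM. For Tfr2, C3_F replicate 5 held 297 CPM and the next lowest 386 CPM. For Trf, C3_M replicate 4 held 29737 CPM and the next highest 20734 CPM. For Fth1, the same liver held 510.0 CPM and the next lowest 593 CPM. C3_M replicate 4 was the 1 liver of its group in pool 3.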

How the results depend on the processing

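Members called were 2, 1, 4 and 3 (B6 F against M, C3 F against M, C3 against B6 in females, and in males) and other iron genes 5, 2, 3 and 3. An adjusted p under 0.05 with no fold limit gave 7, 5, 7 and 6 members, against 34.6%, 40.0%, 32.9% and 34.5% of all genes, and 16, 17, 14 and 15 other iron genes. In C3 F against M, 2 members were called with DESeq2, RLE or upper-quartile scaling, no filter, or limma on log2(TPM + 1) or log2(TPM + 0.1), and 3 when only the groups compared were fitted, which left 1 in C3 F against B6 F. The gain in C3 F against M was Tfrc with DESeq2, RLE and no filter, and Slc40a1 with upper-quartile scaling and limma. It was both genes with only the groups compared. DESeq2 called 8 other iron genes in B6 F against M, and fitting only the groups compared left 1 in C3 M against B6 M. Without pool as a term, members called were 1 in B6 F against M and 1 in each strain comparison, and other iron genes 3 in B6 F against M and 0 in C3 M against B6 M. Leaving out the livers of a pool was chosen after seeing the data. Without pool 1, members called were 1 in B6 F against M, 2 in C3 F against M and 1 in C3 F against B6 F, and other iron genes 1 and 1 between the B6 and the C3 sexes. Without pool 2, members called were 2 in C3 F against B6 F, and other iron genes 3 in B6 F against M and 0 in C3 M against B6 M. Without pool 3, members called were 1 in B6 F against M, and other iron genes 2 in B6 F against M, 1 in C3 F against B6 F and 0 in C3 M against B6 M. The cause of these changes was not tested. Fits without a pool also had fewer livers, and the effect of that was not tested either.

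Signs that turned belonged to values that were not called. Upper-quartile scaling gave Tfr2 0.024 (C3 F against M) and -0.00882 (C3 F against B6 F). Limma on log2(TPM + 1) gave Ftl1 0.053 and Hfe 0.014 in B6 F against M, Tfr2 0.064 in C3 F against M and -0.049 in C3 F against B6 F, and Tfrc -0.041 in C3 M against B6 M. Limma on log2(TPM + 0.1) gave 0.053, 0.014, 0.065, -0.049 and -0.037 for these. Without pool as a term, Hamp gave -0.19 (C3 F against M) and -0.14 (C3 F against B6 F) and Tfrc -0.12 (C3 M against B6 M). Without pool 1 livers, Tfrc gave 0.18 and Tfr2 -0.043 in C3 F against B6 F, Hamp2 -0.072 in C3 M against B6 M, and the Tfrc interaction was 0.0097. Without pool 2 livers, Tfrc gave -0.083 in C3 M against B6 M. Without pool 3 livers, Hamp gave -0.30 and Bmp6 -0.068 in C3 F against M, and Hamp -0.28 in C3 F against B6 F. Over these settings, 92 counts stayed within 1.5 times and 36 did not, and of the member values 527 kept their sign and call, 14 gained and 26 lost a call.

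Leaving out each liver in turn, members called ran from 2 to 3, 1 to 3, 3 to 4 and 2 to 3, and other iron genes from 3 to 7, 2 to 4, 2 to 3 and 1 to 4, with 0 for the interaction. Other iron genes fell to 3 in B6 F against M without B6_F replicate 1, B6_M replicate 1 or B6_M replicate 2, to 1 in C3 M against B6 M without B6_M replicate 1, and rose to 4 in C3 F against M without C3_M replicate 5. Values that turned sign ran from -0.0083 to 0.29 (Hamp, C3 F against B6 F), -0.039 to 0.24 (Hamp, C3 F against M), -0.0057 to 0.058, -0.12 to 0.00096 and -0.047 to 0.067 (Tfr2, B6 F against M, C3 F against M and C3 F against B6 F), -0.41 to 0.22 (Tfrc, C3 F against B6 F), -0.074 to 0.16 (Tfrc, C3 M against B6 M) and -0.44 to 0.18 (Tfrc, interaction).

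Replicate numbers are not stated to pair livers. Same-numbered livers of 2 groups were correlated on what was left of log2 CPM after group means, alone or with pool, were removed. In each comparison 0 to 3 of 5 such pairs had a correlation over 0.1. With the replicate block, other iron genes called were 6, 4, 2 and 3, and the counts of members called were unchanged at 2, 1, 4 and 3. Higher calls made up 50.9% of all calls in B6 F against M and 59.6% in C3 F against M, and 64.3% and 70.0% with upper-quartile scaling, 68.8% and 73.0% on log2(TPM + 1), and 71.6% and 77.4% on log2(TPM + 0.1), which moved the median gene to 0.11 and 0.12.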

Other observations

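Markers of other liver cell types were read for the same livers. Stellate cell markers summed to 551 to 671 CPM in B6_F, 441 to 504 CPM in B6_M, 511 to 631 CPM in C3_F and 449 to 558 CPM in C3_M. Rgs5, a pericyte gene, was the 1 of 6 called between the strains, higher in C3 in both sexes. The other stellate markers went the other way, below 0 for C3 over B6 in both sexes. The median log2 difference of the 6 was -0.34 in females and -0.22 in males. Bile duct markers summed to 21.6 to 43.6 CPM over all livers, and Sox9, a duct cell transcription factor, was called lower in females of both strains and higher in C3 females than in B6 females. The median log2 difference of the bile duct markers was 0.04 and 0.45 for females over males in B6 and C3. It was -0.01 for C3 over B6 females. Apoa1, which encodes the main HDL protein, was the 1 of 8 hepatocyte markers called, higher in C3 in both sexes.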
